A study of Mus musculus with 5 samples.

Results

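The 10 genes described here are Kruppel-like factors (Klf), chosen by name for known roles in fat, blood vessels and stress: Klf2, Klf3, Klf4, Klf5, Klf6, Klf7, Klf9, Klf10, Klf13 and Klf15. They are 10 of 24330 gene symbols in a table of RNA levels, and all 10 were found in it, each on 1 row with 1 listed transcription start. The RNA came from primary adipocytes, the lipid-storing cells of fat, isolated from the epididymal adipose tissue of wild-type C57BL/6 mice aged 17 weeks, in 3 RNA-seq libraries called replicates 1, 2 and 3. The series also lists bisulfite libraries, 1 from mice with Dnmt1 deleted in adipocytes (Dnmt1 AKO) and 1 from wild-type mice, which were not analysed here, so the data hold 1 genotype and no treatment. The question that can be addressed is which Kruppel-like factors the preparation expressed, in what order, and how far the libraries differed.

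Kruppel-like factors bind GC-rich and CACCC-type DNA through a block of zinc fingers at the end of the protein that is closely similar in all of them, while the rest of the protein differs and sets whether a factor activates or represses. Klf3, Klf8 and Klf12 recruit the corepressor CtBP, Klf2, Klf4, Klf5, Klf6 and Klf7 are mainly activators, and Klf9, Klf10, Klf11, Klf13, Klf14 and Klf16 can recruit the corepressor Sin3a. In cultured fat cells they act in a cascade. Klf4 acts within the first hours of differentiation, Klf5, Klf9 and Klf15 act upstream of or beside the fat cell master regulator Pparg, and Klf2, Klf3 and Klf7 hold differentiation back. Klf2 and Klf4 are also flow-induced factors of vessel endothelium, and Klf2, Klf4, Klf6 and Klf10 belong to the genes that serum, stress or tissue handling induces quickly.

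Values are FPKM, which divide the fragments of a gene by its transcript length and by the size of the library. Levels of different genes can therefore be compared per length, and each level gives a share of total RNA, not an amount per cell. The columns summed to between 488721 and 524092 FPKM, and between 11316 and 12612 of 24889 rows reached FPKM 1. Read counts were not part of the table, so total depth is unknown. Replicate 1 stood apart. All 12 adipocyte markers listed here, led by Cfd and Retn, were higher there than in both other libraries, and all 12 endothelial markers, led by Gpihbp1 and Cldn5, were lower. The adipocyte marker sum was 13968 FPKM in replicate 1 against 4406 and 4629 in replicates 2 and 3, and the endothelial sum was 1961 against 4351 and 4032. Markers of spermatids, germ cells of the testis, summed to 1263 FPKM in replicate 1 against 33.3 and 23.9. Over the 11993 genes with a mean of at least FPKM 1, the SD of the log2 difference from replicate 1 was 1.05 for replicate 2 and 1.09 for replicate 3, whereas replicates 2 and 3 differed with an SD of 0.498. In RNA from a mixed preparation, fewer cells of a type and less RNA per cell cannot be told apart. Separate animals are not stated for the libraries, so their spread may be technical.

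The data showed 9 of the 10 factors expressed, and 3 of them carried most of the family's RNA. Klf2, Klf4 and Klf6 lay between 150.2 and 382.6 FPKM in all libraries, and no other member exceeded 47.2. Together these 3 genes held 84.7% ± 0.401 of the summed FPKM of the 10 (SD, n = 3). The sum of all 10 was 913.8, 805.8 and 960.2 FPKM in replicates 1, 2 and 3. The 9 factors at FPKM 1 or more in every library compare with 45.5% of all 24330 symbols, and the 3 above FPKM 150, a level chosen after the values were seen, with 1.62%. In replicates 1, 2 and 3 the median member stood at 25.3, 31.7 and 35.8 FPKM, against 9.67, 8.36 and 9.43 for the median of the 11993 genes with a mean of at least FPKM 1.

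**Figure D1:**
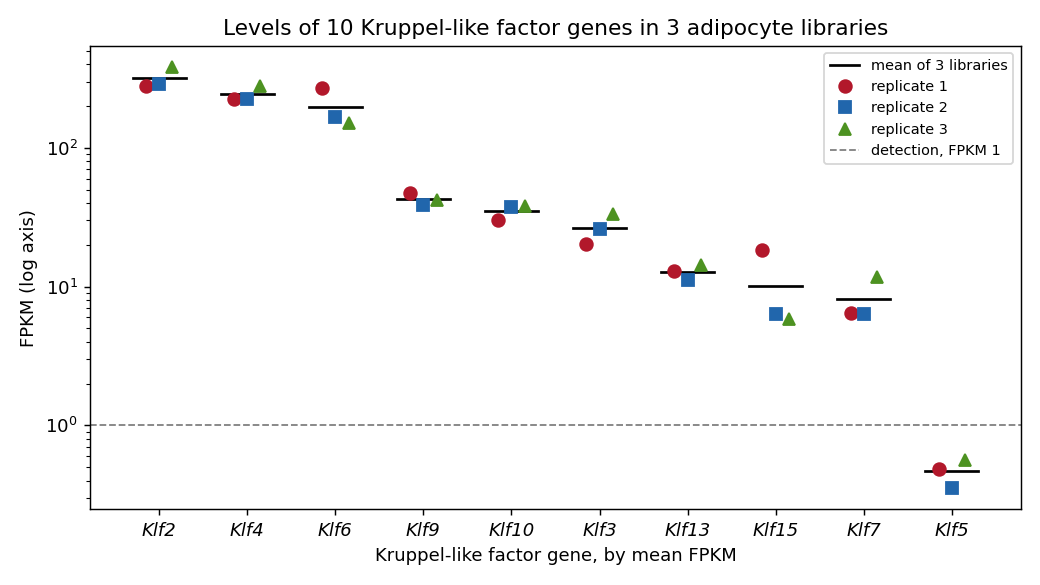
FPKM on a log axis for each of the 10 Kruppel-like factor genes, ordered by mean; points are the 3 libraries, black bars their mean and the dashed line the detection threshold of FPKM 1. Klf2, Klf4 and Klf6 lie above 150 FPKM in every library, 6 genes lie between 5.87 and 47.2, and Klf5 lies below 1. Replicate 1 is the highest library for Klf6, Klf9 and Klf15.

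The promoters of the 3 highest genes and of Klf15, the gene that varied most, are printed because these 4 genes carry the results that follow. Each is the 250 bases before the RefSeq start in build GRCm38.p6, read 5′ to 3′ on the strand of the gene. Klf2 lies at chr8:72318812-72319061 on the plus strand, Klf4 at chr4:55532476-55532725 on the minus strand, Klf6 at chr13:5861239-5861488 on the plus strand and Klf15 at chr6:90462326-90462575 on the plus strand. For Klf15 the RefSeq start used lies upstream of the start in the deposited table, and the RefSeq gene begins further upstream, at 90461043. For the other 3 genes the starts are the same. Capitals mark matches on either strand to the GC box GGGCGG, to the Kruppel-like factor core CACCC, to the general promoter element CCAAT, to the clock factor E-box CACGTG, to the cyclic AMP response element core CGTCA, or to the MEF2 box.
Klf2: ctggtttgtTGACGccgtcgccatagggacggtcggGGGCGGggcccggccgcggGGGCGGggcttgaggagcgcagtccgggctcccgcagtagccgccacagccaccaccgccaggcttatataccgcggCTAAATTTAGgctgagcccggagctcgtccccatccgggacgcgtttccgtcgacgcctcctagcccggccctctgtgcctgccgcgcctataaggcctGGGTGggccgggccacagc
Klf4: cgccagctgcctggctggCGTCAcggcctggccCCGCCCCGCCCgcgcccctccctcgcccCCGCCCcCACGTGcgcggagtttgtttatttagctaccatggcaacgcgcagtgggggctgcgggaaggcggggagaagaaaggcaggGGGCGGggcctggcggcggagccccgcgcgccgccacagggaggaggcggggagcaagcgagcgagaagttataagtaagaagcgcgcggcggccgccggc
Klf6: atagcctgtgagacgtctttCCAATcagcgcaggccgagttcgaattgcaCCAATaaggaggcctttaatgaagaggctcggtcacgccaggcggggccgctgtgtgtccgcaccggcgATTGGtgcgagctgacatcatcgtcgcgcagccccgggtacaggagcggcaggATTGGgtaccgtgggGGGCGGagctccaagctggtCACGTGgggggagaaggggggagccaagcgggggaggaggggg
Klf15: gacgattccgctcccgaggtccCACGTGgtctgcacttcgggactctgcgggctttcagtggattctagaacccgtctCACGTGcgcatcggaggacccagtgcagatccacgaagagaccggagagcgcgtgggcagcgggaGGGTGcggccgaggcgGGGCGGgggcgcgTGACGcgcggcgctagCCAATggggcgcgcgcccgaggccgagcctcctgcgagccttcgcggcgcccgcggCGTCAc

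Of the 10 genes, 8 had a promoter in the RefSeq table, and Klf5 and Klf10 did not. The windows were rich in CpG, with a median of 23.5 CpG and 71.4% GC over the 8 members, against 15 CpG and 59.6% GC over the 11705 promoters of genes with a mean of at least FPKM 1. The letters GGGCGG occurred in 7 of the 8 members, against 57.1% of those 11705 promoters and 32.7% of all 32851 promoters. The core CACCC occurred in 6 of 8, against 57.8% and 52.0%. CACGTG occurred in Klf4, Klf6 and Klf15, with 2 copies in Klf15, against 8.24% and 6.02% of promoters. CGTCA occurred in 5 of 8, against 26.2% and 17.8%, and CCAAT in 4 of 8, against 34.4% and 33.8%, with 4 copies in Klf6. The MEF2 box occurred in Klf2 alone among the 8, as CTAAATTTAG starting 118 bases before the start, against 1.54% and 2.92% of promoters. The CArG box of serum response factor was also searched and had no match in the 8 windows, against 1.26% and 1.47% of promoters. No matches of different motifs overlapped in the 4 windows printed. The motifs were chosen with the levels known, and a match describes letters only.

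Klf2, which in endothelium responds to flow and in preadipocytes represses Pparg, was the highest member. It stood at 279.8, 288.1 and 382.6 FPKM in replicates 1, 2 and 3, a mean of 317 ± 57.1 (SD, n = 3). Its rank among all 24330 symbols was 268, 261 and 206. The deposited locus is chromosome 8, 72319062 to 72321654. Klf4, a paralog that shares endothelial functions with Klf2 and starts the fat differentiation cascade together with Egr2, followed at 225.9, 225.4 and 281.1 FPKM, a mean of 244 ± 32.0. Its locus is chromosome 4, 55527137 to 55532475. Both genes were highest in replicate 3, and replicates 1 and 2 gave nearly the same value for each.

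Klf2 exceeded Klf4 by 0.31, 0.35 and 0.44 log2 units in replicates 1, 2 and 3, a mean of 0.37 ± 0.0693, or 1.29-fold. The difference was positive in 3 of 3 libraries and several times its SD. The exact two-sided sign-flip permutation gave p = 0.25, which is the smallest p that 3 libraries allow, so no ratio between 2 genes can pass 0.05 here. After Benjamini-Hochberg adjustment over the 9 ratios between neighbours in the order by mean, this p was 0.375.

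Klf6, an injury-induced activator that in preadipocytes represses the gene for the differentiation inhibitor Dlk1, had its highest level in replicate 1. It stood at 272.1, 166.0 and 150.2 FPKM, a mean of 196 ± 66.3 (SD, n = 3), at chromosome 13, 5861489 to 5870393. Replicate 1 lay 1.72-fold above the mean log2 level of replicates 2 and 3, and without replicate 1 the mean was 158 FPKM. Klf4 and Klf6 had no common order, since Klf4 was 0.27 log2 units lower than Klf6 in replicate 1, a difference of -0.27, and 0.44 and 0.90 higher in replicates 2 and 3. The mean difference, 0.36 ± 0.591, did not exceed its SD (exact p = 0.5, n = 3). The step to the next gene was several times its SD. Klf6 exceeded Klf9 by 2.53, 2.09 and 1.82 log2 units, a mean of 2.15 ± 0.355 or 4.43-fold, in 3 of 3 libraries (exact p = 0.25, adjusted 0.375, n = 3).

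The middle of the order held Klf9, Klf10 and Klf3, between 20.2 and 47.2 FPKM. Klf9, which glucocorticoids induce and which can raise Pparg late in differentiation, stood at 47.2, 38.9 and 42.4 FPKM, a mean of 42.8 ± 4.17 (SD, n = 3), at chromosome 19, 23141226 to 23166911. It was the steadiest of the 10 genes, with a range over libraries of 1.21-fold. Klf10, first known as a TGF-beta-inducible early gene, stood at 30.4, 37.2 and 38.2 FPKM, a mean of 35.2 ± 4.23, at chromosome 15, 38291464 to 38300711. Klf3, the CtBP-binding repressor that acts on Cebpa in preadipocytes, stood at 20.2, 26.1 and 33.3 FPKM, a mean of 26.6 ± 6.58, at chromosome 5, 64803523 to 64830129. Replicate 1 was the lowest library for Klf10 and Klf3 and the highest for Klf9. Klf9 was above Klf10 by 0.28 ± 0.306 log2 units, less than 1 SD, although positive in 3 of 3 libraries (exact p = 0.25). Klf10 was above Klf3 by 0.43 ± 0.208, also in 3 of 3 (exact p = 0.25).

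Klf13, Klf15 and Klf7 came next, with levels that overlapped. Klf13, known as an activator of the chemokine gene Ccl5 in T lymphocytes, stood at 12.9, 11.1 and 14.2 FPKM, a mean of 12.7 ± 1.57 (SD, n = 3), at chromosome 7, 63886351 to 63938915. It lay below Klf3 in each library, by 1.03 ± 0.340 log2 units on average, a ratio of Klf3 over Klf13 of 2.04-fold (exact p = 0.25, n = 3). Klf7, which in human preadipocytes holds differentiation back, stood at 6.40, 6.29 and 11.8 FPKM, a mean of 8.16 ± 3.13, at chromosome 1, 64035671 to 64121389. It was highest in replicate 3, with replicates 1 and 2 close together.

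Klf15, an activator of the insulin-responsive glucose transporter gene Slc2a4 and of amino acid breakdown, varied most. It stood at 18.3, 6.37 and 5.87 FPKM, a mean of 10.2 ± 7.02 (SD, n = 3), at chromosome 6, 90462626 to 90475209. Replicate 1 was far above the other libraries, which nearly coincided, and without replicate 1 the mean was 6.12 FPKM. The range over libraries was 3.08-fold, at percentile 92.8 of the 11993 genes with a mean of at least FPKM 1. Klf13 was above Klf15 in replicates 2 and 3, by 0.79 and 1.26 log2 units, and below it in replicate 1, with a difference of -0.49. Klf15 over Klf7 gave 1.498, 0.02 and -0.99, a mean of 0.17 ± 1.25 (exact p = 0.75, n = 3), which became -0.49 without replicate 1. The place of Klf15 beside Klf13 and Klf7 is therefore not separated beyond its spread, while Klf13 was above Klf7 in each library.

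Klf5, which follows C/EBP-beta and C/EBP-delta in early differentiation and switches on Pparg, was the one member below the detection threshold. It stood at 0.484, 0.352 and 0.559 FPKM, a mean of 0.465 ± 0.104 (SD, n = 3), at chromosome 14, 99298691 to 99313409, near the middle of all symbols at percentile 45.3. Klf7, the next gene up, exceeded it by 3.82 ± 0.347 log2 units in 3 of 3 libraries (exact p = 0.25). Klf4, which acts just before Klf5 in the cascade, exceeded it by 8.77 ± 0.184. Since Klf5 lies near the pseudocount of 0.1 added before taking logs, these ratios understate the ratio of the FPKM values.

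Among the 9 neighbour ratios, 6 had 1 sign in 3 of 3 libraries. The order came from the means of these same libraries, so the signs and p-values are no separate support for it. The 3 that did not were Klf4 over Klf6, Klf13 over Klf15 and Klf15 over Klf7, and each of them involves Klf6 or Klf15. All 7 ratios between relatives in protein class or in the cascade had 1 sign in every library, each with an exact p of 0.25 and an adjusted p of 0.25 over the 7. Klf6 exceeded its close relative Klf7 by 4.58 ± 0.869 log2 units. Klf9 exceeded its paralog Klf13 by 1.74 ± 0.152, and it exceeded Klf15, the other glucocorticoid-induced member, by 2.26 ± 0.787. Klf10 exceeded Klf11, the second TGF-beta-inducible early gene, by 1.05 ± 0.126, and Klf3 exceeded its fellow CtBP binder Klf12 by 6.16 ± 0.733.

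Outside the 10, 2 of the 7 other Klf genes reached FPKM 1 in every library, against 45.5% of all symbols. These were Klf11 at 13.4, 19.5 and 18.5 FPKM and Klf16 at 9.82, 13.2 and 13.6. Both were lowest in replicate 1. Klf8 averaged 0.522 FPKM, Klf12 0.282, Klf14 0.229 and the erythroid factor Klf1 0.0960. Klf17 was at 0.0958 in replicate 1 and was listed at 0 in replicates 2 and 3. Klf3 was thus the one CtBP binder of the family above FPKM 1. The Sp genes, which share the zinc finger block and bind the GC box, had 4 of 9 detected in every library. This is close to the same 45.5% of symbols. Sp3 averaged 15.3 ± 1.02 FPKM, Sp2 10.6 ± 0.802, Sp1 8.66 ± 0.342 and Sp4 1.31 ± 0.113. Sp5, Sp6 and Sp7 stayed below 0.25 FPKM, and Sp8 and Sp9 were listed at 0 in all libraries. Summed over the family, the 17 Klf genes gave 938.6, 839.3 and 993.4 FPKM, so the 10 described here held nearly all of it.

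**Figure D2:**
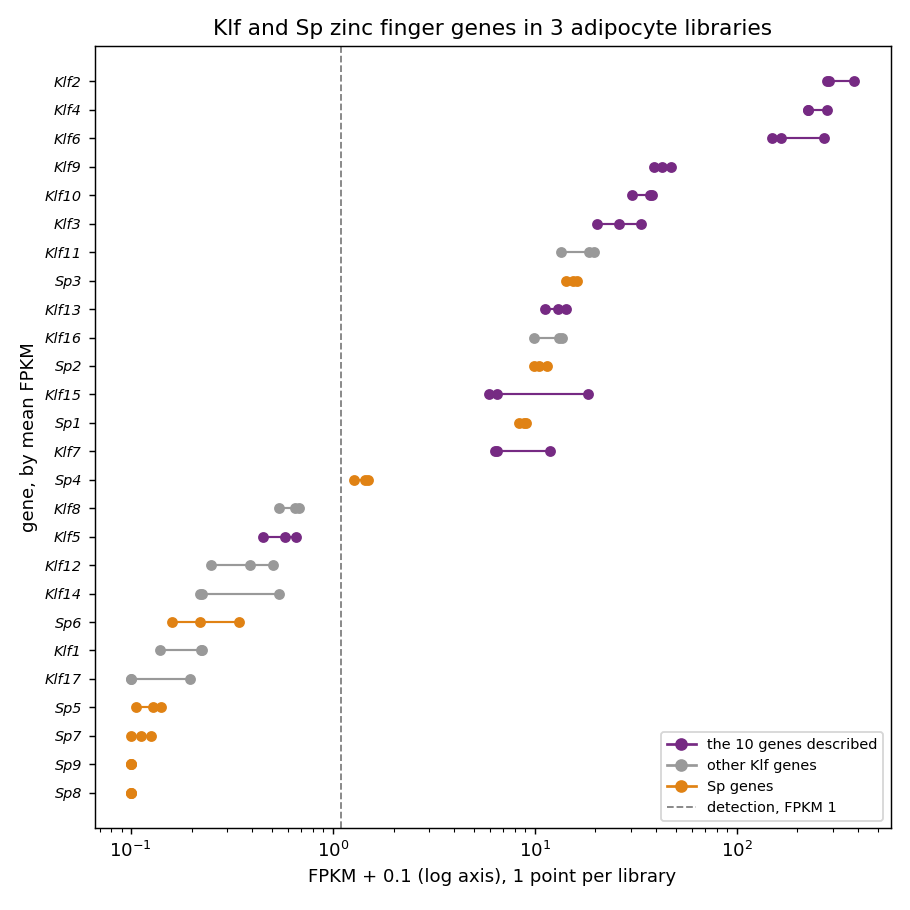
FPKM + 0.1 on a log axis for all 26 measured Klf and Sp genes, 1 point per library joined by a line over their range; purple marks the 10 genes described, grey the other Klf genes and orange the Sp genes, and the dashed line is FPKM 1. Klf2, Klf4 and Klf6 stand apart at the top, Klf9, Klf10 and Klf3 lie above every grey and orange gene, Klf13, Klf15 and Klf7 overlap with Klf11, Klf16, Sp1, Sp2 and Sp3, and Klf5 falls among the genes below the threshold.

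Between libraries, 2 members passed 1.5-fold in replicate 1, both higher there. Klf15 lay 1.56 log2 units above the mean of replicates 2 and 3 and Klf6 0.79 above. These are 2 of the 9 members with a mean of at least FPKM 1, against 18.7% of the 11993 genes at that mean, which is close to the same share. No member was lower by more than 1.5-fold, against 8.78% of genes. Klf3 was nearest, with a difference of -0.54, followed by Klf7 at -0.42, Klf10 at -0.31, Klf2 at -0.25 and Klf4 at -0.16. The remaining differences were 0.22 for Klf9, 0.10 for Klf5 and 0.04 for Klf13. Klf6, Klf9 and Klf15 were higher in replicate 1 than in both other libraries by any amount, 3 of 9 against 46.7% of genes, and Klf2, Klf3 and Klf10 lower than in both, 3 of 9 against 32.8%. The median gene was not level between libraries, at 3.29, 3.08 and 3.25 on the log2(FPKM + 0.1) scale in replicates 1, 2 and 3. Relative to each library's median, Klf15 was higher in replicate 1 by 1.44 and Klf6 by 0.66, Klf3 passed 1.5-fold with -0.67, and Klf5 and Klf13 changed sign to -0.03 and -0.08. The median range over libraries was 1.37-fold for the 9 members and 1.39-fold for the 11993 genes.

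**Figure D3:**
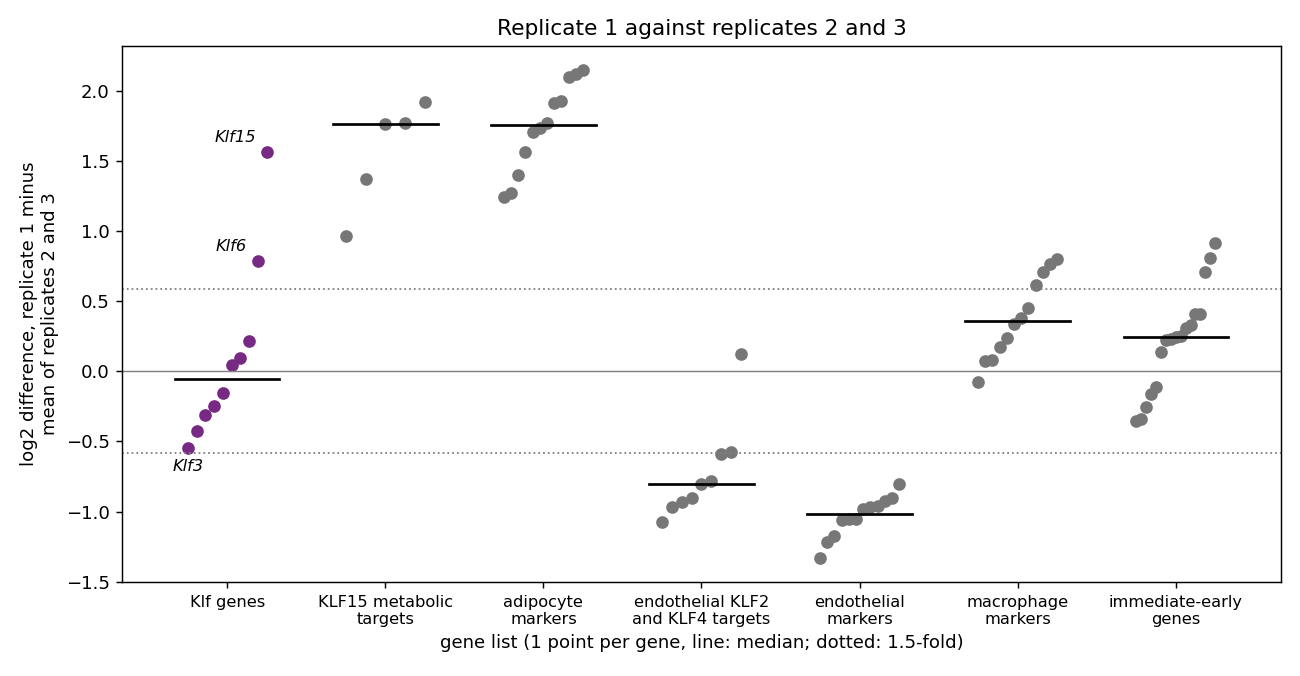
Log2 difference of replicate 1 from the mean of replicates 2 and 3, on the log2(FPKM + 0.1) scale, 1 point per gene in each list with the list median as a line; dotted lines mark 1.5-fold. Klf15 at 1.56 lies within the range of the adipocyte markers (1.25 to 2.15) and Klf6 at 0.79 lies below it, while the other 8 Klf genes lie within 1.5-fold and above all 12 endothelial markers.

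Klf15 differed between libraries by about as much as the adipocyte markers did. Klf15 minus the median adipocyte marker was -4.98, -5.13 and -5.31 log2 units in replicates 1, 2 and 3, a range of 0.33 where Klf15 alone ranged over 1.62. Against the endothelial markers the difference ranged over 2.70. These comparisons with marker lists were chosen after the values were seen, and whether the share of adipocyte RNA accounts for the level of Klf15 was not tested. Of the 5 genes listed as Klf15 targets in metabolism, Bcat2, Slc2a4, Gpt and Prodh were taken from work on mouse muscle, liver and fat. Acss2, the fifth, is not an established target. All 5 were also more than 1.5-fold higher in replicate 1, as were all 12 adipocyte markers, against the same 18.7% of genes. The median difference was 1.77 log2 units for the 5 listed genes, Acss2 included, and 1.76 for the 12 markers. Bcat2, which starts branched-chain amino acid breakdown, stood at 90.1, 35.0 and 34.4 FPKM. Slc2a4, itself among the adipocyte markers, stood at 45.5, 14.4 and 12.1, and the alanine transaminase gene Gpt at 42.3, 15.1 and 10.1. The proline oxidase gene Prodh stood at 20.5, 4.73 and 6.04 and the acetyl-CoA synthetase gene Acss2 at 15.2, 9.11 and 6.60. Each of the 5 was highest in replicate 1, as Klf15 and all 12 adipocyte markers were, against 46.7% of genes. Whether Klf15 acted on these genes was not tested.

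Klf2 and Klf4 did not follow the endothelial markers. Over the endothelial markers, the median ratio of replicate 1 to replicates 2 and 3 was 0.494-fold, whereas Klf2 was 0.843-fold and Klf4 0.897-fold. Klf2 minus the median endothelial marker was 1.22, 0.19 and 0.59 log2 units in replicates 1, 2 and 3, and Klf4 minus that median was 0.91, -0.16 and 0.15. Both were thus highest relative to the endothelial median in the library where that median was lowest. The median was 6.91, 7.98 and 7.99, while Klf2 alone ranged over 0.45 and Klf4 over 0.32. Any gene that varies little gives this order by subtraction, as Klf9 did at -1.34, -2.69 and -2.58. A list held 9 endothelial genes that Klf2 and Klf4 are known to act on. In it, 7 were more than 1.5-fold lower in replicate 1 and none higher, against 8.78% of genes lower by that fold. All 12 endothelial markers were lower by that fold too. Of the 9, 8 were lowest in replicate 1, as were all 12 endothelial markers, against 32.8% of genes with a mean of at least FPKM 1. Among genes that Klf2 and Klf4 activate, Aqp1, a water channel, stood at 1068, 1896 and 1830 FPKM. The lipid receptor gene S1pr1 stood at 104.0, 205.6 and 191.3, and the nitric oxide synthase gene Nos3 at 27.7, 49.9 and 68.7. Thbd, which encodes thrombomodulin, stood at 100.2, 76.7 and 110.0 and was the one gene of the list that was not lowest there, with a difference of 0.12. The endothelin gene Edn1, at 3.64, 4.37 and 9.15, is a gene that Klf2 is known to lower, and it too was lowest in replicate 1. Icam1, at 122.5, 160.3 and 207.6, was also lowest there. Tek is in both this list and the marker list.

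**Figure D4:**
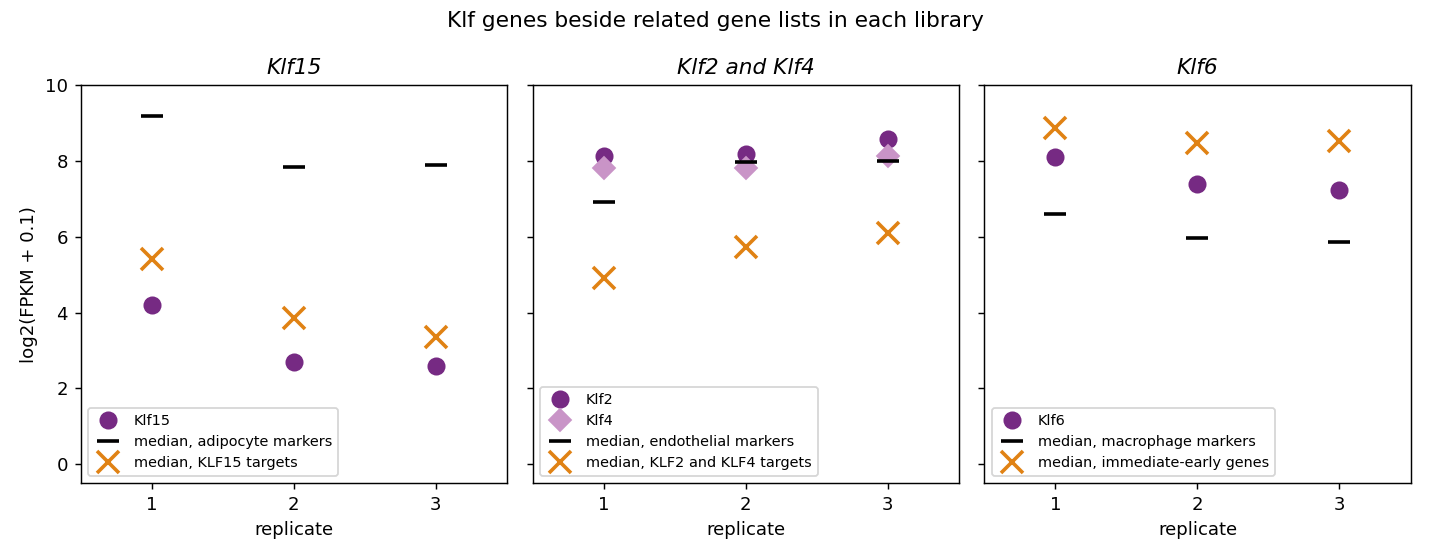
Levels on the log2(FPKM + 0.1) scale in replicates 1, 2 and 3 of Klf15 (left), Klf2 and Klf4 (middle) and Klf6 (right), beside the medians of related gene lists (bars and crosses). Klf15 minus the adipocyte median stays between -5.31 and -4.98. Klf2 and Klf4 have nearly the same level in replicates 1 and 2, where the endothelial median differs. Klf6 stays 1.37 to 1.5 above the macrophage median, although most single macrophage markers differed less in replicate 1 than Klf6 did.

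Klf6 varied little relative to the median level of the macrophage markers, although most single markers differed less in replicate 1 than Klf6 did. Klf6 minus the median macrophage marker was 1.5, 1.42 and 1.37 log2 units in replicates 1, 2 and 3, a range of 0.13 where Klf6 alone ranged over 0.86. This was the smallest range among the lists compared with Klf6, next to 0.52 for the immediate-early genes and 0.64 for the adipocyte markers. The 12 macrophage markers, led by Lyz2 and C1qb, summed to 2707, 2036 and 2256 FPKM, and 4 of them were more than 1.5-fold higher in replicate 1, against 18.7% of genes. The other 8 stayed within 1.5-fold. Over the 12 markers, the median ratio of replicate 1 to replicates 2 and 3 was 1.28-fold, against 1.72-fold for Klf6, and Ptprc, with a difference of 0.81 log2 units, was the one marker past Klf6 at 0.79. Dlk1, the gene that Klf6 is known to repress in preadipocytes, stood at 0.517, 1.07 and 2.69 FPKM, lowest where Klf6 was highest. Over 3 libraries such orders are a description only, and the part of macrophage RNA in the level of Klf6 was not tested.

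Rapidly induced genes were high beside the 3 leading factors. All 17 immediate-early genes listed were detected in every library, against 45.5% of all symbols. Of the 17, 14 differed by less than 1.5-fold over the libraries, against 59.8% of genes. Fos averaged 1427 ± 172 FPKM (SD, n = 3), Zfp36 1394 ± 198, Junb 1056 ± 107, Egr1 1014 ± 187 and Jun 560.5 ± 57.5, and Myc was the lowest of the list at 75.1 ± 27.7. Klf2, Klf4 and Klf6 lay below the median of this list, apart from Klf2 in replicate 3. Klf2 differed from that median by -0.74, -0.31 and 0.05 log2 units, Klf4 by -1.05, -0.66 and -0.40, and Klf6 by -0.78, -1.10 and -1.30. Whether cell isolation raised these factors cannot be tested in these libraries, which hold no tissue taken without it.

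The kinases and MEF2 factors that link flow to Klf2 and Klf4 in endothelium were all expressed. In every library, 7 of 7 reached FPKM 1, against 45.5% of all symbols. Mef2a averaged 28.7 ± 0.823 FPKM (SD, n = 3), the kinase gene Map3k3 27.9 ± 6.43, Mef2d 19.6 ± 3.34, Map2k5 (MEK5) 13.0 ± 1.70 and Mef2c 10.4 ± 0.980, and Map3k2 was lowest at 2.81 ± 0.658. Mapk7 (ERK5) stood at 7.22, 10.4 and 13.1 and was the 1 gene of the list that passed 1.5-fold, lower in replicate 1. This compares with 8.78% of genes lower by that fold. The MEF2 box in the Klf2 promoter is printed above, and whether this pathway acted on Klf2 was not tested.

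Of 13 cofactors and ubiquitin ligases of Kruppel-like factors, all 13 were detected in every library, against 45.5% of all symbols. In replicate 1, 10 stayed within 1.5-fold, near the share that 18.7% of genes higher and 8.78% lower by that fold leave. Sin3b averaged 70.4 ± 4.99 FPKM and Ctbp1 70.3 ± 11.5 (SD, n = 3), against 11.5 ± 1.15 for Sin3a and 12.5 ± 1.80 for Ctbp2. The deacetylase genes Hdac1, Hdac3 and Hdac2 averaged 42.8 ± 1.09, 33.1 ± 1.84 and 29.2 ± 1.46, and the acetyltransferase gene Crebbp was lowest at 4.11 ± 0.579. The 3 genes past 1.5-fold were all higher in replicate 1, against 18.7% of genes higher by that fold. No gene of the list was lower by that fold, against 8.78% of genes. The 3 were the acetyltransferase gene Kat2b, the Klf3 partner gene Fhl3 and Wwp1, which encodes a ubiquitin ligase of Klf2 and Klf5.

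Genes around Klf4, Klf5, Klf9 and Klf15 in the adipogenic cascade were mostly higher in replicate 1, 7 of 10 past 1.5-fold, against 18.7% of genes. Dlk1 was the 1 gene lower by that fold, against 8.78% of genes. Cebpa stood at 181.8, 56.2 and 58.7 FPKM and the Klf4 partner gene Egr2 at 76.4, 34.0 and 35.2, both highest in replicate 1. Pparg stood at 173.8, 193.6 and 163.7, with no such difference, and Cebpd averaged 61.7 ± 11.4 (SD, n = 3). Of these 10 genes, Adipoq and Slc2a4 also stand in the adipocyte marker list. Of 10 glucocorticoid-responsive genes, all 10 were detected in every library, against 45.5% of all symbols, and 3 were more than 1.5-fold higher in replicate 1, against 18.7% of genes. Mt1 and Mt2, metallothionein genes, were 2 of the 3, at 1066, 474.2 and 474.6 FPKM and at 1082, 412.6 and 388.1, and Zbtb16, at 14.1, 5.90 and 7.44, was the other. Dusp1 averaged 551 ± 54.5, Sgk1 285 ± 20.5 and Tsc22d3 83.9 ± 11.5, and the glucocorticoid receptor gene Nr3c1 stood at 25.2 ± 2.03. Beside these 10 genes, the glucocorticoid-induced member Klf9 was level between libraries, at 1.16-fold in replicate 1, and Klf15 was not, at 2.95-fold. Of 5 genes of the early TGF-beta response beside Klf10, all 5 were detected in every library, against the same 45.5% of symbols. Skil, at 13.0, 8.67 and 8.37 FPKM, was the 1 gene of the 5 past 1.5-fold in replicate 1. It was higher there, against 18.7% of genes. Tgfb1, the ligand gene, stood at 49.6, 68.2 and 75.9, lowest in replicate 1 as Klf10 was. In this list 3 of 5 genes were lowest in replicate 1, against 32.8% of genes, and 2 were highest, against 46.7%. Whether Tgfb1 and Klf10 are linked here was not tested. Tgif1 averaged 42.1 ± 5.24 and Smurf2 10.98 ± 0.451, and Smad7 was the lowest of the list at 6.67 ± 0.508.

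Among the 5712 genes with a mean of at least FPKM 10, those whose profile over the 3 libraries lay nearest to Klf2 were the lipid transfer protein gene Pltp, Snx1 and Hcfc1, each within 0.01 log2 units of it after centring on the gene mean. A profile of 3 values is easily shared, and 387 of 5711 genes lay within 0.1 of Klf2. Nearest to Klf15 were Mmd, at 138.7, 48.9 and 45.3 FPKM, Nudt7, at 27.7, 10.2 and 9.34, and the chemokine gene Ccl2, at 355.5, 131.8 and 114.7. For Klf15, 18 of 5711 genes lay within 0.1.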

How the data were processed

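RNA was extracted with trizol and libraries followed standard Illumina procedures, per the labels' protocols, which do not state strandedness. Levels are FPKM as deposited by the authors in 1 table, matched to libraries by the column names in the sample descriptions. Builds GRCm38 and mm10 and the tools featureCounts, Bismark 0.22.1 and Trim Galore 0.5.0 are listed, per the submitters' processing notes, with no role. What computed the FPKM is not stated. The smallest positive value, 6.06e-62, lies far below what 1 fragment is worth, so values are estimates, and counts could not be recovered. Among values below FPKM 0.15, binned at 0.02 log2 units, the most common ratio of replicate 1 to replicate 3 was 1.06 and held for 128 of 1263 rows, which gives a relative depth for these libraries only. With replicate 2, no ratio held for more than 13 rows. Of 24889 rows, 27 with a date for a symbol were dropped, and the highest row was kept for 273 repeated symbols. Table loci, counted from 1 here, share the GRCm38.p6 RefSeq start for 7 of the 10 genes and the end for 5.

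Logs are log2(FPKM + 0.1), which understates ratios of low genes. Each ratio of 2 genes was taken within a library, and an exact sign-flip permutation (two-sided) tested its mean. Replicate 1 was set against the mean log2 of replicates 2 and 3, called at 1.5-fold, with no test. The members, the 10 related gene lists and the 9 cell type lists were chosen with earlier results of these data known. Genes named are all Klf and Sp genes, up to the 5 highest and the lowest of each related list, the 2 highest of each cell type list and the 3 nearest profiles to Klf2 and Klf15; 1 further gene of the TGF-beta response is not reported here, some were left out for length, and others of the lists were named after their values were seen. Tools were pandas 2.3.3 and numpy 2.4.6 under Python 3.11.15, with figures from matplotlib 3.10.9.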

Additional observations from a re-analysis of the deposited data

How the results depend on the processing

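The ratios between members kept their direction under the alternatives run, with 1 exception, and 9 members were detected under each of them, while neighbour ratios with 1 sign numbered 6 to 8 of 9 when a library was left out. The alternatives changed the pseudocount to 1 and 0.01, the detection threshold to 0.5 and 5, the handling of repeated symbols and the scaling, and left out each library in turn. That exception was the ratio of Klf15 over Klf7, which reversed to -0.49 log2 units without replicate 1 and reached 0.76 without replicate 3. The number of members more than 1.5-fold lower in replicate 1, 0 as reported, was 1 (Klf3) after centring on each library's median. With 1 comparison library left out it was 0 to 2, the 2 being Klf3 and Klf7 without replicate 2. The share of genes lower by that fold was 5.66% over all symbols. Rescaled to TPM, the median member level was 61.1, against 30.9 in FPKM. All 10 member levels moved by more than their SD with that change of unit. The medians of the 20 lists gave 140 values under the alternatives. Of these, 24 moved by more than the SD of the list median, most of them with the change to TPM. The alternative that leaves out replicate 1 gives no deviation of that library. No paired analysis was possible because the RNA libraries form 1 group. With 3 libraries and unknown depth, no counting interval can be given, and levels near 0, such as that of Klf5, rest on an estimate of unknown precision.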
